A study of Mus musculus with 6 samples.

Results

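The Egr and Nr4a genes were followed in the RNA-seq of cultured cerebellar granule cells (GCs) after YTHDF2 KD. They are 7 of the 53421 genes in the count table, namely Egr1, Egr2, Egr3, Egr4, Nr4a1, Nr4a2 and Nr4a3, and they were taken by name. The families were selected from this same comparison, with the lower values of several members in the knockdown libraries already known, so the values of the members below are a description and carry no test. Of the 7 genes, 6 passed the filter on low counts and were among the 17214 genes tested, and Egr3 did not pass it.

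The study asked which mRNAs of GCs differ after loss of YTHDF2, a reader protein of m6A-modified mRNA. The libraries came from total RNA of GCs of C57BL/6 mice, which the labels place at postnatal day 8. The cells were grown in Neurobasal A medium with B27, infected with lentivirus and selected with puromycin. In 3 libraries the virus carried a short hairpin RNA that targets Ythdf2 (shYthdf2), and in the other 3 a control hairpin (shCtrl). Both groups thus shared the genotype of the mice, the virus, the drug and the medium. The library names number the replicates 1, 2 and 4 in each group and name 1 of the Ythdf2 hairpins, so that a single hairpin stands for the knockdown. The sample titles and the genotype labels give the groups the other way round from the library names. The names were followed, and every direction below would be inverted if the titles were right.

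EGR proteins are zinc finger transcription factors that bind GC-rich sites, and NR4A proteins are orphan nuclear receptors that bind DNA without a classical ligand. Both families are immediate-early genes in neurons. Their transcription starts within minutes of calcium entry or growth factor signalling through CREB at cyclic AMP response elements (CREs) and SRF at CArG boxes, and their mRNAs are short-lived. EGR1 and EGR3 are associated with synaptic plasticity, EGR2 is known for its part in hindbrain patterning and myelination, and NR4A2 is known for its part in dopamine neurons.

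Ythdf2 itself had 501, 402 and 501 normalized counts in the shYthdf2 libraries 1, 2 and 4 and 618, 841 and 628 in shCtrl, where normalized counts are counts scaled by TMM to a common library size. It was thus lower in each of the 3 libraries named for its hairpin than in each of the other 3. This is the direction that a knockdown gives under the library names and not under the titles. Of all tested genes, 13.4% were lower without overlap in the same way. Ythdf2 was left with 81.0%, 47.9% and 79.7% of the shCtrl level in replicates 1, 2 and 4, so its difference was largest in replicate 2. On the log2 scale shYthdf2 minus shCtrl was -0.57 with a standard error of 0.16 (Benjamini-Hochberg adjusted p = 0.125, edgeR quasi-likelihood test). The paper reported more mRNAs higher than lower after YTHDF2 KD, by its own test. Here the genes called by edgeR leaned the other way, with 42 higher and 62 lower. DESeq2 called 445 higher and 709 lower. Scaling by library size alone gave 61 higher and 47 lower, and leaving out shCtrl replicate 2 gave 1671 and 1568. The assignment of the groups was not tested. The libraries held 17246821 to 21546595 counts. Replicate 2 stood apart in both groups. As a measure of distance, the chi-square over the tested genes was divided by its degrees of freedom. Replicates 1 and 4 lay 4.64 apart in shCtrl and 3.34 in shYthdf2, more than sampling noise, and replicate 2 lay 52.9 to 54.8 and 32.9 to 35.0 from them. Replicate 2 of shCtrl and of shYthdf2 lay 22.1 apart. No source used here says what sets replicate 2 apart. By the paper's methods, the libraries of each group were biological replicates. Which cultures the replicate numbers mark is not given. How much of the spread between replicates 1 and 4 is technical was not tested. The granule cell markers were present in every library, with summed levels of 212015 to 224907 normalized counts over 12 genes.

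The promoters are shown first, since CREB and SRF sites are the best known route to these genes. RefSeq windows on GRCm38 that run from 250 bases before to 50 after a start site were given for 5 members, in 9 windows. The windows of Nr4a1 (chr15:101266596-101266895, plus strand), Nr4a2 (chr2:57123954-57124253, minus strand), Nr4a3 (chr4:48045055-48045354, plus strand) and Egr4 (chr6:85513540-85513839, minus strand) are single, and Egr2 has 5, of which the one at chr10:67537619-67537918 (plus strand) is shown, 1 of 3 overlapping windows that hold the most matches. The stretches below are the parts of these windows before the start site and before any annotated exon in the window, 5′ to 3′ on the strand of the gene. Those of Nr4a1 and Egr2 lie inside the span of the annotated gene, whose first base is further upstream. Capitals mark the CRE half-site TGACG, on either strand and so also as CGTCA, and in Egr2 the CArG box as well.
Nr4a1, chr15:101266596-101266845: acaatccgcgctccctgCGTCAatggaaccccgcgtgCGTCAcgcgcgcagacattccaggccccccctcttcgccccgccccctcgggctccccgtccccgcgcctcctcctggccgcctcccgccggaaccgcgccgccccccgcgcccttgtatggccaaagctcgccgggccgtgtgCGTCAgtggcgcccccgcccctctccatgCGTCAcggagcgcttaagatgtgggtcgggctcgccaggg
Nr4a2, chr2:57124004-57124253: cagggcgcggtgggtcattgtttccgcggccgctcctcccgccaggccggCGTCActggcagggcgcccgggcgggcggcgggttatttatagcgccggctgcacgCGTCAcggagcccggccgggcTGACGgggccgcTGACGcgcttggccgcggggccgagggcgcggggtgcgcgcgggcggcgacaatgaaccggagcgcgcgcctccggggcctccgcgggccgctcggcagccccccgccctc
Nr4a3, chr4:48045055-48045152: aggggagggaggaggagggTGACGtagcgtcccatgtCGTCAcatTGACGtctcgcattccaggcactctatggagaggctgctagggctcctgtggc
Egr4, chr6:85513590-85513839: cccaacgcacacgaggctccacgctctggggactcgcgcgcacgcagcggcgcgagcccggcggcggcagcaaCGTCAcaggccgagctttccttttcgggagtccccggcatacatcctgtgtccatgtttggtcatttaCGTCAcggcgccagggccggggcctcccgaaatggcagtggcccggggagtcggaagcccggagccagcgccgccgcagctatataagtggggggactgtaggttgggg
Egr2, chr10:67537619-67537868: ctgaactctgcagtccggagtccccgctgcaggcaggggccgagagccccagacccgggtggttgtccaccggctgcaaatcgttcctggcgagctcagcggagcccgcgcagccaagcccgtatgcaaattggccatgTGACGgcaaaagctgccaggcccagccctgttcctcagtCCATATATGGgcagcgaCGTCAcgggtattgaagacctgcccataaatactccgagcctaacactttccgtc

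Each Nr4a window held 4 matches to the CRE half-site, a number reached by 0.231% of the 32851 windows of all genes. In Nr4a1 they began between 233 and 40 bases before the start, in Nr4a2 between 200 and 111, and in Nr4a3 between 231 and 147, where the last lies in an exon annotated further upstream and is not printed. Egr4 and the Egr2 window shown held 2 each, and 5.01% of all windows held at least 2. The Egr2 windows at chr10:67535249-67535548 and chr10:67537316-67537615 held 0, and the latter has a CArG box of its own. The palindromic CRE TGACGTCA was in 0 of the 9 member windows and in 1.79% of all windows. The CArG box of Egr2 lay 72 bases before its start, between the matches to the CRE half-site, and 1.63% of all windows held a CArG box. The EGR site GCGNGGGCG was in the windows of Nr4a1 and Nr4a2, once in each, and in 5.55% of all windows. The AP-1 site TGANTCA (7.81% of windows) and the NR4A site AAAGGTCA (1.51%) had 0 matches in the member windows. These are matches of letters on both strands, and binding was not measured. The windows of Nr4a1, Nr4a2 and Nr4a3 held 72.3%, 81.7% and 64.7% G or C. Those of Egr4 and Egr2 that are shown held 67.7% and 60%, against a median of 52.7% over all windows. The shares of all windows were not matched for GC content, so they do not separate rare sites from GC-rich windows.

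**Figure D1:**
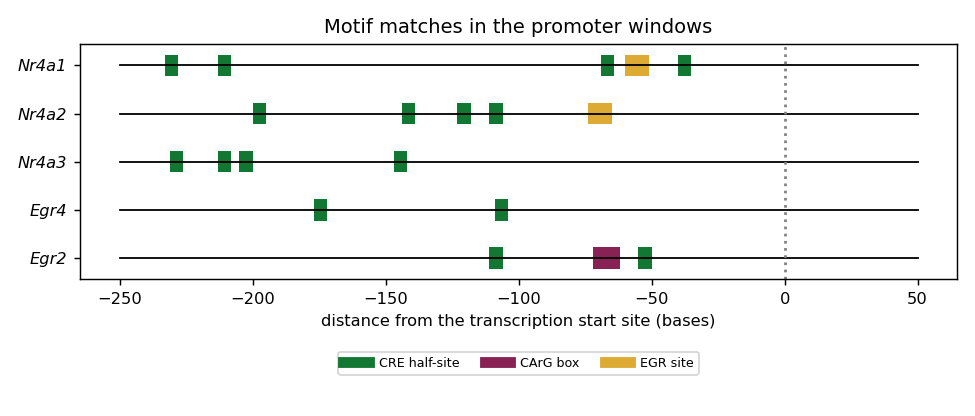
Matches to the CRE half-site (green), CArG box (purple) and EGR site (yellow) in 1 promoter window of each of 5 members, by distance from the RefSeq start site in bases (dotted line at 0). The Nr4a genes carried 4 matches to the CRE half-site each, Egr4 and Egr2 2 each, and the CArG box of Egr2 lay between its 2 matches.

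The Nr4a genes stood lower in the shYthdf2 libraries than in the shCtrl libraries, with group means of 9.22% to 25.5% of the shCtrl mean. Nr4a1 (Nur77, ENSMUSG00000023034, chr15:101254269-101274795) had 666, 544 and 712 normalized counts in shYthdf2 replicates 1, 2 and 4 and 9494, 1553 and 9218 in the shCtrl ones. The groups did not overlap, and the shCtrl library of replicate 2 was far below the other shCtrl libraries while the shYthdf2 libraries were alike. On average this was 641 ± 86.9 (SD, n = 3) against 6755 ± 4507 (SD, n = 3), and the log2 fold change fitted over all genes was -3.40 (standard error 0.62).

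Nr4a2 (Nurr1, ENSMUSG00000026826, chr2:57106830-57124003) had 1613, 849 and 1647 normalized counts in shYthdf2 and 6932, 2345 and 6837 in shCtrl. The groups did not overlap, and replicate 2 was the lowest library of its group on both sides. The log2 fold change was -1.97 (standard error 0.44). Nr4a3 (Nor1, ENSMUSG00000028341, chr4:48045153-48086447) had 197, 350 and 200 normalized counts in shYthdf2 and 3435, 1290 and 3365 in shCtrl. Here the replicate 2 libraries were nearest to each other from both sides, the shYthdf2 one being the highest and the shCtrl one the lowest of its group. The log2 fold change was -3.44 (standard error 0.43).

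The Egr genes had lower group means after YTHDF2 KD as well, at 13.0% to 35.8% of shCtrl, but the libraries of the groups overlapped for each of the 4. Egr1 (Zif268, ENSMUSG00000038418, chr18:34859823-34864984) had 850, 222 and 860 normalized counts in shYthdf2 and 2575, 363 and 2463 in shCtrl. The replicate 2 shCtrl library was below 2 of the shYthdf2 libraries, and the shYthdf2 library of replicate 2 was lower still. On average this was 644 ± 365 (SD, n = 3) against 1800 ± 1246 (SD, n = 3), and the fitted log2 fold change was -1.48 (standard error 0.75).

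Egr2 (Krox20, ENSMUSG00000037868, chr10:67535475-67542188) followed the same order at lower counts, with 18.8, 2.91 and 14.9 normalized counts in shYthdf2 and 100, 13.6 and 95.6 in shCtrl. Its replicate 2 shYthdf2 value rested on 3 counts. The log2 fold change was -2.52 (standard error 0.83). Egr4 (ENSMUSG00000071341, chr6:85511121-85513589) had 22.0, 70.8 and 19.1 normalized counts in shYthdf2 and 184, 62.0 and 171 in shCtrl. It was lower after YTHDF2 KD in replicates 1 and 4 and slightly higher in replicate 2. The log2 fold change was -1.89 (standard error 0.60).

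Egr3 (ENSMUSG00000033730, chr14:70077203-70082614) had at most 7 counts in 4 of the 6 libraries, with 7, 6 and 7 counts in shYthdf2 and 70, 0 and 88 in shCtrl. The high values were thus those of shCtrl replicates 1 and 4. A count of 0 allows up to 3 counts, which is 2.66 to 3.30 normalized counts in these libraries. Without the filter its fitted log2 fold change was -2.92 (standard error 0.88), a value that depends on how the fit treats the library at 0.

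**Figure D2:**
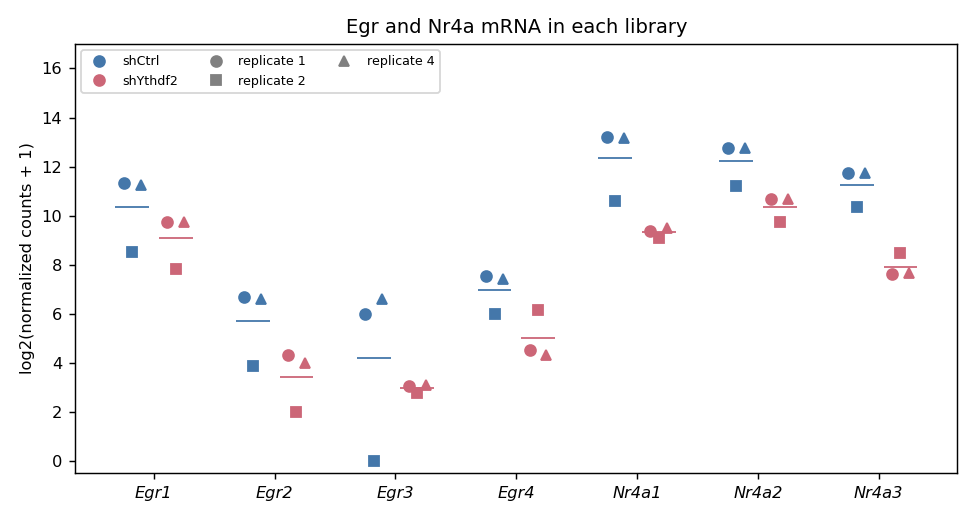
Level of each Egr and Nr4a mRNA in each library as log2(normalized counts + 1), with shCtrl in blue, shYthdf2 in red, 1 symbol for each replicate number and a bar at the mean of the 3 plotted values. The 3 Nr4a genes did not overlap between groups, the 4 Egr genes did, and replicate 2 of shCtrl (blue square) was the lowest shCtrl library for all 7.

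Of the 6 members tested, Nr4a3 was the 1 gene with an adjusted p under 0.05, where 0.604% of all tested genes were called and 0.36% were called in the lower direction. The groups did not overlap for 3 members, which were lower in shYthdf2, against 13.4% of all tested genes. These counts describe the comparison that chose the members and are not evidence about them. The calls changed with the tool, the filter and the treatment of replicate 2. DESeq2 called 5 members (Egr2, Egr4 and the 3 Nr4a genes), where 4.62% of genes were called lower, limma-voom called 0, where 0.0988% were, and edgeR with no filter called the 3 Nr4a genes, where 1.23% were. With the replicate number as a block, 2 members were called (Egr2 and Nr4a2), where 0.819% of genes were called lower. With a term for replicate 2 alone, 5 were called, where 11.6% were. Without the shCtrl library of replicate 2, all 7 members were called lower, where 8.84% of genes were. Without the shYthdf2 library of replicate 2, Nr4a3 was called, where 2.82% were. Without any 1 of the other 4 libraries 0 members were, with 0 calls among all genes. The log2 fold changes of the 6 members were below 0 in every fit and normalization tried, from -1.97 to -1.07 for Egr1 and from -3.77 to -3.23 for Nr4a3.

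Compared within a replicate number, the differences in replicates 1 and 4 were close to each other and larger than in replicate 2. Nr4a3 was left with 5.72% and 5.93% of the shCtrl level in replicates 1 and 4 and 27.1% in replicate 2. Nr4a1 was left with 7.02%, 7.73% and 35.0% in replicates 1, 4 and 2. For Nr4a2 the percentages were 23.3, 24.1 and 36.2. Egr2 differed least between replicates, with 18.8% and 15.5% in replicates 1 and 4 and 21.4% in replicate 2. Egr1 was left with 33.0% and 34.9% in replicates 1 and 4 and 61.1% in replicate 2. Egr4 went from 11.96% and 11.1% in replicates 1 and 4 to 114% in replicate 2. In all, 5 of the 7 members were lower in all 3 pairs, the exceptions being Egr3 and Egr4.

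**Figure D3:**
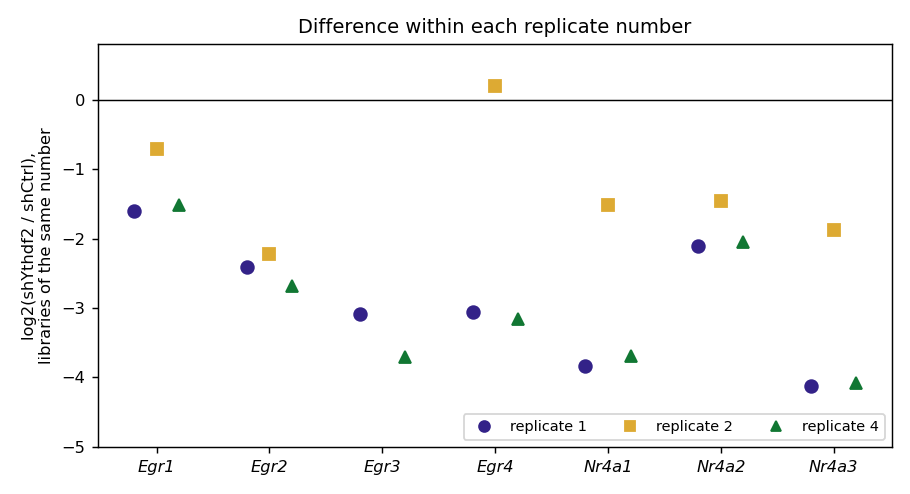
Log2 ratio of the shYthdf2 to the shCtrl library of the same replicate number for each member, with the line at 0 for no difference. Replicate 2 (yellow squares) lay above replicates 1 and 4 for every member drawn in it, at 0.19 for Egr4 and -1.88 for Nr4a3, and Egr3 has no point there because its shCtrl library held 0 counts.

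Each member varied more between the shCtrl libraries than the median gene did. In shCtrl their coefficient of variation was 45.2% (Nr4a3) to 92.6% (Egr3), against a median of 13.5% over 12813 genes with a mean of at least 50 normalized counts. In shYthdf2 it was 13.1% (Egr3) to 77.9% (Egr4), against a median of 11.9%, and Nr4a1 at 13.6% was close to that median. The 13.1% of Egr3 rests on 7, 6 and 7 counts, where counting error is large. Egr2 and Egr3 averaged below 50 normalized counts, so they lie outside the set of genes behind the medians. In shCtrl, replicate 2 had 13.9% of the mean of replicates 1 and 4 for Egr2, 14.4% for Egr1, 16.6% for Nr4a1, 34.1% for Nr4a2, 34.9% for Egr4 and 37.9% for Nr4a3. In shYthdf2 the members split. Replicate 2 had 17.3% of that mean for Egr2, 26.0% for Egr1 and 52.1% for Nr4a2, but 345% for Egr4 and 177% for Nr4a3.

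Levels between genes were compared per kilobase of exon. In shCtrl, Nr4a1 (1925 ± 1284 normalized counts per kb, SD, n = 3) and Nr4a2 (1323 ± 646) were highest, followed by Nr4a3 (450 ± 204) and Egr1 (402 ± 278), then by Egr4 (64.7 ± 31.2), Egr2 (20.5 ± 14.3) and Egr3 (12.01 ± 11.1). Nr4a1 and Nr4a2 differed by less than their SDs, as did Nr4a3 and Egr1, and Egr2 and Egr3. These SDs hold the shared low values of replicate 2, so the order was compared within libraries. Nr4a1 was above Nr4a2 in shCtrl 1 and 4 (2706 and 2627 against 1708 and 1685) and below it in shCtrl 2 (443 against 578). Nr4a3 and Egr1 were close in shCtrl 1 and 4, and Nr4a3 was above in shCtrl 2 (216 against 81.0). Egr2 was above Egr3 in each shCtrl library (29.5, 3.99 and 28.1 against 14.1, 0 and 21.9). The group means put Nr4a1 above 98.2% of the tested genes in shCtrl, Nr4a2 above 96.7%, Nr4a3 above 85.9%, Egr1 above 84.1% and Egr4 above 45.2%. In shYthdf2, the order began with Nr4a2 (338 ± 111), Nr4a1 (183 ± 24.8) and Egr1 (144 ± 81.5), then Nr4a3 (41.5 ± 14.7), Egr4 (17.4 ± 13.5), Egr2 (3.59 ± 2.44) and Egr3 (1.56 ± 0.204). Nr4a1 and Egr1 were equal in replicate 1 (190 each) and close in replicate 4 (203 and 192). In replicate 2, Nr4a1 (155) and Nr4a3 (58.5) were above Egr1 (49.5). Nr4a2 was then above 82.1% of the genes, Nr4a1 above 68.4%, Egr1 above 62.5% and Nr4a3 above 36.5%.

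Summed per kb over the family, the Nr4a genes had 620, 423 and 642 normalized counts per kb in shYthdf2 and 4987, 1236 and 4874 in shCtrl. The shYthdf2 library had 12.4% of the shCtrl sum in replicate 1, 34.2% in replicate 2 and 13.2% in replicate 4. The Egr genes summed to 207, 84.6 and 207 in shYthdf2 and 703, 114 and 679 in shCtrl, which left 29.4%, 74.3% and 30.4%. The Nr4a sum was 7.09, 10.9 and 7.18 times the Egr sum in shCtrl and 3.00, 4.99 and 3.11 times in shYthdf2. This ratio restates the values of the chosen members and carries no test.

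The make-up of the families differed as well. In shCtrl replicates 1 and 4, Nr4a1 made up 54.3% and 53.9% of the Nr4a sum and Nr4a2 34.2% and 34.6%. In the shYthdf2 libraries of these replicates, Nr4a2 was the main member with 64.1% and 63.2%, and Nr4a1 had 30.6% and 31.6%. In replicate 2 the make-up was nearly the same in both groups, with 35.8% Nr4a1 and 46.8% Nr4a2 in shCtrl and 36.7% and 49.5% in shYthdf2. Nr4a3 had 11.5% in both shCtrl 1 and shCtrl 4 and 5.29% and 5.19% in shYthdf2 1 and 4. In replicate 2 it had 17.4% in shCtrl and 13.8% in shYthdf2. Egr1 made up most of the Egr sum everywhere, with 71.1% to 81.6% in shCtrl and 58.5% to 92.8% in shYthdf2. Egr4 took 25.3% and 38.9% of it in the replicate 2 libraries of shCtrl and shYthdf2, and at most 12.2% in the other libraries.

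**Figure D4:**
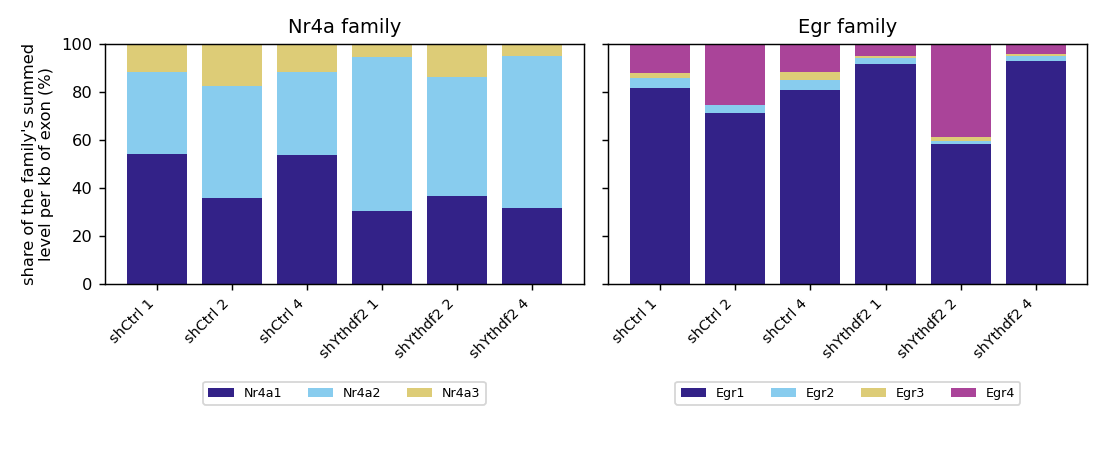
Share of each member in the summed level per kb of exon of its family, in percent, for each library (stacked bars, group and replicate number below). Nr4a2 replaced Nr4a1 as the main Nr4a mRNA in shYthdf2 1 and 4 (64.1% and 63.2%), and Egr4 had its largest shares in both replicate 2 libraries (25.3% and 38.9%).

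The profile of each member over the 6 libraries was compared with those of 12557 other genes, by the root mean square difference of log2 normalized counts after centring each gene on its mean. Fos, the AP-1 subunit, was among the 3 nearest to Nr4a1 (0.371) and to Egr2 (0.589). Mir212, a microRNA gene known as a CREB target, was nearest to Nr4a1 (0.204), and 1700016P03Rik, the transcript that contains it on the same strand of chromosome 11, was second for Nr4a2 (0.225), so these 2 rows may share reads. Sik1, a kinase that restrains CREB coactivators, was nearest to Nr4a2 (0.201), and Junb, an AP-1 subunit, was also near (0.287). For Nr4a3 the nearest were Neb (0.246), the neurotrophin Bdnf (0.292) and the neuropeptide precursor Vgf (0.294). These profiles share the libraries and the low value of shCtrl replicate 2.

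Egr1 was nearest to Gm17024 (0.208), Gm45263 (0.348) and Gm44686 (0.388), which overlap Ifrd1, Gpm6a and Chd2 in the annotation. Gm45263 was also nearest to Egr2 (0.297), ahead of Ighm (0.439). Egr4 was nearest to Gm3752 (0.213), Gm5796 (0.282) and Gm8281 (0.317), and Gm3558 was among the 3 nearest to Nr4a1 (0.434). These 4 are similar gene models on chromosome 14, and their counts are uncertain. Among the members, Egr1 and Egr2 were the closest pair (0.521), followed by Nr4a1 and Nr4a3 (0.581) and by Egr1 and Nr4a2 (0.609). Egr4 was nearer to Nr4a3 (0.760) than to Egr1 (1.35). The closest pairs were thus within a family, while other near pairs joined an Egr gene with an Nr4a gene. These distances restate the values of the chosen members and carry no test.

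In the 3′ UTR, AU-rich elements are known to shorten the life of immediate-early mRNAs. The nonamer TTATTTATT was in 0 of the 7 member 3′ UTRs and in 7.66% of 13464 tested coding genes. The shorter ATTTA occurred 5.52 times per kb in Nr4a1, a density reached by 5.35% of these genes, and 2.65 times in Egr3, 2.50 in Egr2, 2.26 in Nr4a2, 1.64 in Egr1 and 1.62 in Nr4a3, against a median of 1.23. Egr4 had 0 in a 3′ UTR of 519 bases. GGACT, a common form of the m6A consensus, occurred 0.280 (Nr4a2) to 1.57 (Nr4a1) times per kb of transcript, around the median of 1.06. Methylation of these mRNAs was not measured here.

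The other immediate-early genes were mostly lower in shYthdf2, as 30 of the 40 listed had a log2 fold change below 0 and the median was -0.90, where the median of all tested genes was 0.01. The test called 3 of them, all lower, namely the neuronal activity factor Npas4 at -4.89 on the log2 scale (standard error 0.62, edgeR adjusted p = 0.0430), the AP-1 subunit Fosl2 at -2.51 (0.33, edgeR adjusted p = 0.0447) and Ier2 at -1.48 (0.23, edgeR adjusted p = 0.0496). An unadjusted p under 0.05 was reached by 27, of which 25 were lower, where 20.1% of all tested genes reached it. Fos had 2677, 1361 and 2675 normalized counts in shYthdf2 and 22257, 6553 and 21717 in shCtrl (log2 fold change -2.91, standard error 0.50, edgeR adjusted p = 0.0539). Fosb had 72.1, 10.7 and 58.4 against 1409, 35.8 and 1452 (log2 fold change -4.37, standard error 1.23, edgeR adjusted p = 0.122). Both repeated the order of Nr4a2 and Egr1, with replicate 2 lowest in each group. DESeq2 called 19 of the list, all lower, where 4.62% of all genes were called lower, and limma-voom called 0, which ended the 3 calls. The calls also changed with single libraries. Without shCtrl replicate 2, 23 were called, where 8.84% of all genes were called lower. Without shYthdf2 replicate 2, 7 were, where 2.82% were. Without each of the other 4 in turn 0 were, with 0 calls among all genes. The replicate block called 8, all lower, where 0.819% of all genes were called lower. Among the 8 were Npas4, Ier2, Fos and Fosb, while Fosl2 lost its call (edgeR adjusted p = 0.0525 with the block).

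The factors that switch on Egr and Nr4a transcription were split in direction. Of 30 tested upstream activators, 17 had a log2 fold change above 0 and 13 below, with a median of 0.02. By edgeR 0 passed the adjusted threshold and 12 had an unadjusted p under 0.05 (5 higher, 7 lower), DESeq2 called 8 and limma-voom 0. Mef2c and Mef2d, activity-dependent MADS box factors, stood at -1.56 (standard error 0.30, edgeR adjusted p = 0.0589) and -1.05 (0.18, edgeR adjusted p = 0.0527). Camk2a, a calcium-dependent kinase, had 1.14 (0.27, edgeR adjusted p = 0.0913). With the replicate block, Mef2d (edgeR adjusted p = 0.0452), the SRF coactivator Mrtfa and, in the other direction, Camk2a (edgeR adjusted p = 0.0468) were called. Srf had a log2 fold change of -0.17 (0.08, edgeR adjusted p = 0.301) and Creb1 one of 0.33 (0.10, edgeR adjusted p = 0.147). Srf, Creb1 and Mrtfa are named outside the rule for named genes, after their values were seen.

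Among 8 cofactors and partners, 6 were below 0 and 2 above, with a median log2 fold change of -0.16. By edgeR 0 were called, 2 had an unadjusted p under 0.05 (both lower), and DESeq2 and limma-voom called 0 each. The EGR corepressor Nab1 stood at -0.39 on the log2 scale (standard error 0.12, edgeR adjusted p = 0.143), the NR4A dimer partner Rxrb -0.48 (0.13, edgeR adjusted p = 0.122) and the coactivator Crebbp -0.19 (0.18, edgeR adjusted p = 0.608).

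Of 18 genes listed as targets of EGR or NR4A factors, 14 were tested, and 10 were above 0 and 4 below, with a median of 0.18. By edgeR 0 were called and 4 had an unadjusted p under 0.05 (1 higher, 3 lower), DESeq2 called 1 (Bdnf) and limma-voom 0. Bdnf had 30.3, 69.8 and 21.2 normalized counts in shYthdf2 and 530, 149 and 522 in shCtrl (log2 fold change -3.29, standard error 0.61, edgeR adjusted p = 0.0584), the pattern of Nr4a3 and Egr4 with replicate 2 highest in shYthdf2 and lowest in shCtrl. Cdk5r1, the activator of the kinase CDK5, had 0.57 (0.22, edgeR adjusted p = 0.212) and Tgfb1 had 0.67 (0.48, edgeR adjusted p = 0.486). The target Arc, which is also an immediate-early gene, had 31.8 ± 7.26 normalized counts in shYthdf2 and 27.0 ± 14.4 in shCtrl (SD, n = 3), and in shCtrl it was highest in replicate 2, unlike the members. It is named outside the rule as well.

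Relatives of the members by protein family were spread around 0. Of 42 other nuclear receptors, 28 were tested, with 14 above and 14 below 0 and a median of -0.01. By edgeR 0 were called and 12 had an unadjusted p under 0.05 (6 in each direction), DESeq2 called 5 and limma-voom 0. The replicate block called 1, the orphan receptor Rora, which was higher. The circadian receptor Nr1d2 had 0.81 (standard error 0.19, edgeR adjusted p = 0.0906), the progesterone receptor Pgr 0.75 (0.28, edgeR adjusted p = 0.199) and the retinoic acid receptor Rarg -0.76 (0.22, edgeR adjusted p = 0.122). Of 27 Sp, Klf and Wt1 zinc finger genes, 20 were tested, with 9 above and 11 below 0 and a median of -0.01. By edgeR 0 were called and 7 had an unadjusted p under 0.05 (2 higher, 5 lower), DESeq2 called 2 and limma-voom 0. Klf8 had 0.58 (0.14, edgeR adjusted p = 0.0965), Klf13 -0.77 (0.21, edgeR adjusted p = 0.119) and Klf16 -0.42 (0.18, edgeR adjusted p = 0.237).

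**Figure D5:**
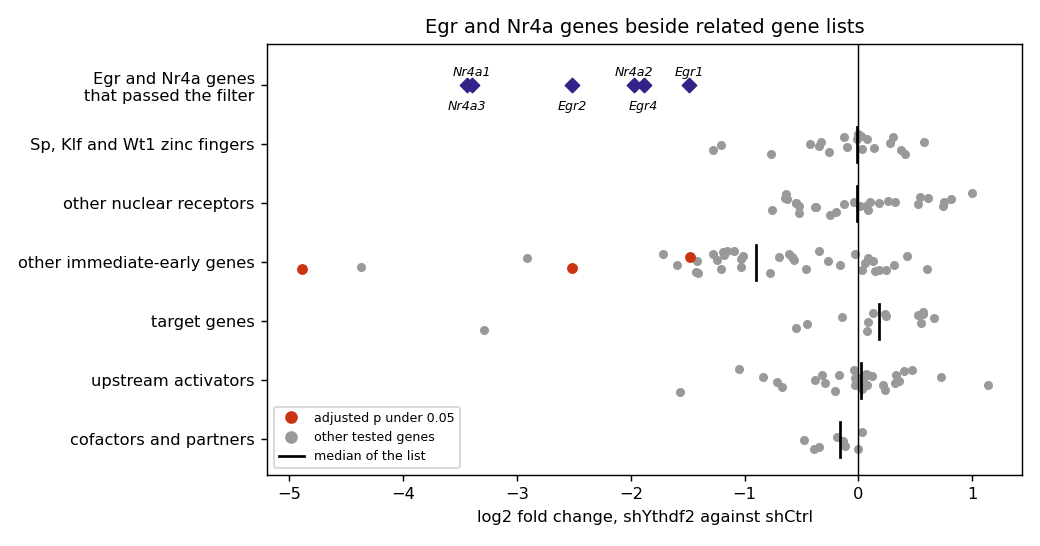
Log2 fold change (shYthdf2 against shCtrl) of the 6 tested members (diamonds) and of each tested gene in 6 related lists (points), with the list median as a black bar and list genes with an edgeR adjusted p under 0.05 in red. The members lie between -3.44 and -1.48, the other immediate-early genes have a median of -0.90, and the other lists have medians between -0.16 and 0.18.

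Markers of other cell types differed between the libraries too, without a call in the main fit. The 8 oligodendrocyte markers summed to 8021, 9869 and 8234 normalized counts in shYthdf2 replicates 1, 2 and 4 and to 2722, 9279 and 2732 in shCtrl. The 10 microglia markers summed to 1530, 573 and 1653 in shYthdf2 and 318, 1197 and 275 in shCtrl. In replicates 1 and 4 both lists were thus higher in shYthdf2, where the members were lower, and in replicate 2 the oligodendrocyte sums were nearly equal and the microglia sum was lower in shYthdf2, while 5 of the members were lower there too. The 10 vascular markers had 3166, 7954 and 3233 in shYthdf2 and 2490, 6232 and 2495 in shCtrl, and were highest in replicate 2 of both groups. The 8 astrocyte markers had 10523, 10041 and 10262 in shYthdf2 and 7982, 12329 and 8100 in shCtrl. Over the 6 libraries, the fitted log2 fold change was above 0 for the 8 oligodendrocyte, 9 microglia and 9 vascular markers tested and for 6 of 7 astrocyte markers. Within replicate 2, 8 of the 9 microglia markers were lower in shYthdf2 (median log2 difference -1.36, against 2.41 and 2.72 in replicates 1 and 4), as were 5 of 7 astrocyte markers (median -0.17) and 4 of 8 oligodendrocyte markers (median -0.01). Over these lists, 0 markers were at 0 in all libraries. The progenitor markers summed to 969 to 1198 in shYthdf2 and 1063 to 1374 in shCtrl, the GABAergic markers to 6784 to 8596 and 5698 to 6286, and the Purkinje cell markers to 2271 to 2510 and 1804 to 2027. By edgeR, 0 genes of these lists and of the granule cell list were called, and with the replicate block 1 was, the GABAergic marker Gad1 (edgeR adjusted p = 0.0450). An unadjusted p under 0.05 was reached by 4 granule cell, 2 astrocyte, 1 oligodendrocyte, 1 vascular, 1 GABAergic and 1 Purkinje cell markers and by 0 of the others, DESeq2 called 2 granule cell, 1 astrocyte, 1 GABAergic and 1 Purkinje cell markers, and limma-voom called 0. Without the shCtrl library of replicate 2, edgeR called 8 oligodendrocyte, 6 astrocyte, 5 granule cell and 4 microglia markers. It also called 2 GABAergic, 1 progenitor, 1 Purkinje cell and 1 vascular markers, where 3239 of 17734 genes were called. With a term for replicate 2, it called 8 granule cell, 4 oligodendrocyte, 4 vascular, 2 astrocyte and 2 GABAergic markers. It also called 2 progenitor, 1 microglia and 1 Purkinje cell markers, where 3799 of 17214 genes were called. The part of these cells in the levels of the members was not tested. In such bulk libraries, fewer cells that express a gene and less mRNA per cell cannot be told apart.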

How the data were processed

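RNA-seq gave 6 libraries of cultured GCs. The authors discarded poor reads, aligned the others by HISAT and TopHat2 (GRCm38) and assigned them to genes by HTSeq. They deposited the raw counts, with no normalization. The submitters' processing notes name Bowtie 0.12.2 and mm9 instead, the labels and the paper name different library kits, and strand is not given in the sources used here, so reads of overlapping genes may be shared. The groups follow the library names. Of the 53421 gene IDs, 52489 matched a symbol in the GRCm38 annotation and 785 lie outside it.

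The edgeR 4.0.16 fit (R 4.3.3) used filterByExpr by group with a minimum count of 10 and a minimum total of 15, TMM factors, the quasi-likelihood test and Benjamini-Hochberg adjustment over 17214 genes. The filter removed 36207 genes and kept 99.8% of the counts. With 3 libraries a group, the p-values measure the spread between these libraries. Depth was 17246821 to 21546595 counts, and values at few counts carry counting error. Profiles used log2 with a pseudocount of 1. Sequences and plots were handled in Python 3.11.15 (pandas 2.3.3, numpy 2.4.6, matplotlib 3.10.9).

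Libraries of the same number deviated together from their group means (correlations 0.251 for replicate 1, 0.362 for replicate 2 and 0.291 for replicate 4). The fit by group stayed without the block, as in the study's methods, and the replicate block was an alternative. The others were RLE size factors, library size alone, DESeq2 1.42.0, limma-voom (limma 3.58.1), no filter, at least 10 counts in every library, a term for replicate 2, leaving out each library, and the difference of the members within each replicate number.

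The members and all lists were chosen with earlier results of these data known. Lists were written by hand (cofactors and partners, upstream activators, target genes, other immediate-early genes, other nuclear receptors, Sp, Klf and Wt1 zinc fingers, and markers of granule cells, progenitors, GABAergic neurons, Purkinje cells, astrocytes, oligodendrocytes, microglia, and vascular cells). The genes named were Ythdf2, the members, in each list that holds no markers those with an adjusted p under 0.05 and the 3 with the largest absolute log2 fold change above a mean of 50 normalized counts, and for each tested member the 3 genes with the nearest profile.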

Additional observations from a re-analysis of the deposited data

How the results depend on the processing

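Replicate 2 of shCtrl limits these results most, since leaving it out raised the calls more than leaving out any other library did. For the Egr genes it lay within or below the range of the shYthdf2 libraries, and for the Nr4a genes above it. Over the tested genes the library nearest to it was shYthdf2 replicate 2, at a chi-square distance of 22.1. The calls among all genes numbered 104, and 639 with no filter, 232 with the replicate block, 3799 with a term for replicate 2, 1154 by DESeq2, 24 by limma-voom and 0 to 3239 with 1 library left out (829 without shYthdf2 replicate 2, 3239 without shCtrl replicate 2, 0 without each other). For the lists the counts are given in the order cofactors, upstream activators, targets, other immediate-early genes, other nuclear receptors, and Sp, Klf and Wt1 genes, where 0, 0, 0, 3, 0 and 0 were called. With no filter they were 0, 5, 1, 16, 3 and 1. With the replicate block, the paired fit, they were 0, 3, 0, 8, 1 and 0. With a term for replicate 2 they were 2, 13, 4, 23, 12 and 5. By DESeq2 they were 0, 8, 1, 19, 5 and 2, and by limma-voom 0 for each list. Library size alone and at least 10 counts in every library gave 1 nuclear receptor each. With 1 library left out they ranged from 0 to 2, 0 to 13, 0 to 5, 0 to 23, 0 to 10 and 0 to 5, highest without shCtrl replicate 2 in each list. Where leaving out a library lowers the counts, the fit also has fewer samples, and the cause of the other shifts was not tested.

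For the members that passed the filter, the difference within replicates 1, 2 and 4 was -3.06, 0.19 and -3.17 for Egr4, the 1 value that turned direction. The difference was -1.51 in replicate 2 for Nr4a1, and -4.13 in replicate 1 and -1.88 in replicate 2 for Nr4a3. Egr3 did not pass the filter and is not in this count. In replicate 2 it had 6 counts in shYthdf2 and 0 in shCtrl. The other 95 values of log2 fold changes moved by less than 1 SD of the replicates. This SD holds the spread of replicate 2 and is wide, at 1.39 for Egr1 and 1.44 for Egr2. The -0.71 of Egr1 in replicate 2, against -1.48 in the main fit, is thus among the 95, and the count is no measure of stability.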
